A study of Rattus norvegicus with 4 samples.

Results

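Albumin (Alb), transthyretin (Ttr), retinol-binding protein (Rbp4), alpha-1-microglobulin/bikunin precursor (Ambp), the vitamin D-binding protein (Gc), fetuin-A (Ahsg) and alpha-1-antitrypsin (Serpina1) were followed in untreated rat liver. They are 7 of the 10412 genes that had a probe set of their own on the array. A probe set is a group of short probes for 1 transcript, and it was taken for a gene when its annotation gave that gene's symbol alone. The 7 genes had 9 of the 15923 probe sets, since Alb and Gc had a pair each and the other genes a single one. All 4 samples were control livers of male Sprague-Dawley rats aged 10 to 12 weeks, kept on standard feed and given no treatment. Each rat was measured on its own Affymetrix array, as rats 1 to 4 below, so a difference between animals cannot be told apart from a difference between arrays. With 1 group there was no contrast to test, and values are the deposited log2 signals, with the mean ± SD over n = 4 rats.

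Hepatocytes make most proteins of blood plasma and secrete them through the endoplasmic reticulum. Albumin is the most abundant of them, keeps up the osmotic pressure of blood and carries fatty acids, bilirubin and drugs. Ttr carries thyroxine and also binds Rbp4, the carrier of retinol, which keeps that small protein from being filtered by the kidney. Gc, a relative of albumin, carries vitamin D metabolites and binds actin released by damaged cells. Ambp is cut into alpha-1-microglobulin, a binder of heme, and bikunin, a protease inhibitor. Ahsg binds calcium phosphate and keeps it soluble in plasma, and Serpina1 inhibits neutrophil elastase. In liver these genes are known to be driven by shared hepatocyte transcription factors, among them HNF4, FOXA and C/EBP proteins.

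Promoter sequences were available for 7 of 7 genes, as the 250 bases before the gene start that RefSeq gives in the rat assembly GRCr8. That of Alb is shown whole because it held matches to 3 of the 5 sequences searched. Both strands were searched, and capitals mark, from left to right, TGTTTNC (opposite strand), TTNNGCAA, CCAAT, and CCAAT on the opposite strand.
Alb, chr14:17906980-17907229, minus strand: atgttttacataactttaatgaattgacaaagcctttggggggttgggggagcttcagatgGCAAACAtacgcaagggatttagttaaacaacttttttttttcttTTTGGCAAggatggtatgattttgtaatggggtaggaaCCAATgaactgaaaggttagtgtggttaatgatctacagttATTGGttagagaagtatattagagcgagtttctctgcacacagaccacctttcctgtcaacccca

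Alb and Gc both lie on chromosome 14. Afp and Afm, the other genes of the family that are described below, directly follow each other next to Alb. Gc lies on the other side of Alb, with 4 protein-coding genes between them (Ankrd17, Cox18, Adamts3 and Npffr2). The Gc window held 0 of the 5 sequences searched, and so did that of Serpina1.

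TGTTTNC, a form of the letters that FOXA proteins are known to bind, was found in 4 of the 7 windows. It was found in 18.3% of all 33465 promoter windows of the same length. Short stretches are shown to let these matches be compared, with the match in capitals on the gene's own strand. Those of Ambp and Alb are on the opposite strand and therefore read GNAAACA.
Ttr, chr18:12218593-12218629, plus strand: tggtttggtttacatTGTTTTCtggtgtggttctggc
Ambp, chr5:81593953-81593989, minus strand: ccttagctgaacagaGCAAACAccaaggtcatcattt
Ahsg, chr11:91632669-91632705, minus strand: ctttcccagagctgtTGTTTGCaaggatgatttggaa
Alb, chr14:17907147-17907183, minus strand: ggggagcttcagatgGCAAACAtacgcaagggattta

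TTNNGCAA, part of what C/EBP proteins are known to bind, was found in Alb, Ahsg and Rbp4, or 3 of 7 windows, and in 9.22% of all windows. In Ahsg it occurred at 2 places, of which the nearer to the start ran over positions -60 to -53, counted back from the gene start. CCAAT occurred in Alb and Ambp (34.0% of all windows), TATAAA in Rbp4 alone of the 7 (12.9%), and CAAAGTCC, an HNF4 sequence, in 0 of 7 (1.14%). The windows also differed in base composition. G and C made up 70.8% of the Rbp4 window and 38.8% of the Alb window, against a median of 51.2% over all windows. A match is a description of the letters only, and none of these windows was measured in the study. Sites written in other letters were not searched for, so a window without a match may still hold a site. Whether the gene starts that RefSeq gives are those used in liver was not tested.

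All 7 genes gave a strong signal in every rat. Background was set from 49 genes of brain, muscle, testis, eye and pituitary. The level, 9.93 on the log2 scale, was the 95th percentile of the means of their 63 probe sets. All 9 probe sets of the carriers lay above it on each of the 4 arrays. Of all 15923 probe sets, 7.25% had a mean above it. By each array's own level, 968 of the 15923 passed on all 4 arrays, the 9 of the carriers included. The level itself rests on Myh1, a skeletal muscle myosin, of whose 5 probe sets 4 lay above it. Without Myh1 it was 8.27, and 6667 instead of 1155 probe sets exceeded it. The dimmest carrier probe set lay 1.31 log2 units above the level with Myh1 and the others 3.87 to 5.13.

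**Figure D1:**
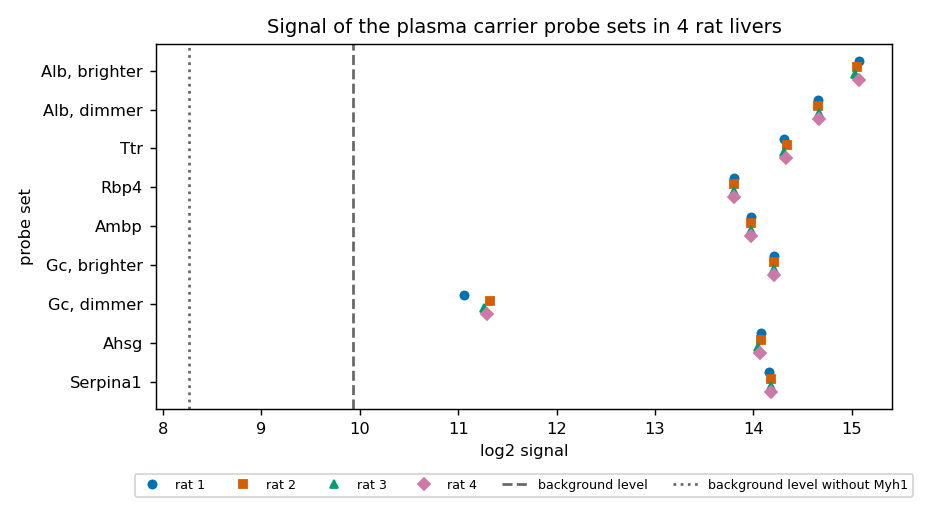
Log2 signal (horizontal axis) of the 9 probe sets of the plasma carriers (vertical axis) in each of the 4 rats, 1 symbol per rat, with both background levels as vertical lines. Of these, 8 probe sets sit between 13.80 and 15.07 in every rat, and the dimmer probe set of Gc sits between 11.06 and 11.32.

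Albumin, the main carrier, had signals of 15.071, 15.056, 15.037 and 15.073 in rats 1 to 4 (mean 15.06 ± 0.017), which includes the highest value on any array. Rats 1 and 4 were the higher pair and rat 3 the lowest, and the whole range was 0.036 log2 units, or 2.51% in linear signal. Its other probe set, of the type whose probes can match more than 1 gene, had 14.653, 14.654, 14.667 and 14.667 (mean 14.66 ± 0.008). There rats 3 and 4 were the higher pair and rats 1 and 2 the lower, so the 2 probe sets put rats 1 and 3 in opposite order. The difference between them was 0.40 ± 0.021 log2 units (n = 4).

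Ttr, the thyroxine carrier, had signals of 14.310, 14.345, 14.314 and 14.330 in rats 1 to 4 (mean 14.32 ± 0.016). Rat 2 was the highest and rat 1 the lowest, 2.43% apart in linear signal. Rbp4, its partner in plasma, had 13.80 in each of the 4 rats, with an SD of 3.08e-08. Probe sets whose 4 values lie within 0.001 log2 units are called flat here, and a nearly repeated value of this kind does not measure a spread between animals. Whether the Ttr and Rbp4 signals vary together therefore could not be read from these arrays.

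Gc, the vitamin D carrier, gave different pictures in its pair of probe sets. The brighter one was flat, with 14.205 in all 4 rats and a range of 0.00027 log2 units. The dimmer one had 11.058, 11.319, 11.262 and 11.292 in rats 1 to 4 (mean 11.23 ± 0.12), with rat 1 below the other 3 and a range of 19.8% in linear signal. The difference between the pair was 2.97 ± 0.12 log2 units (n = 4), and the same sequence accession is given for both. A probe set's signal depends on how well its probes bind, so this is a difference in signal, not in amount of transcript.

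Ahsg, the calcium phosphate binder, had 14.073, 14.077, 14.051 and 14.065 in rats 1 to 4 (mean 14.07 ± 0.012), highest in rat 2 and lowest in rat 3. Serpina1, the elastase inhibitor, had 14.154, 14.181, 14.176 and 14.176 (mean 14.17 ± 0.012), with rats 2 to 4 within 0.006 log2 units of each other and rat 1 below them. The ranges of Ahsg and Serpina1 were 1.86% and 1.93% in linear signal. Ambp, the alpha-1-microglobulin precursor, was flat at 13.97 in each rat.

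**Figure D2:**
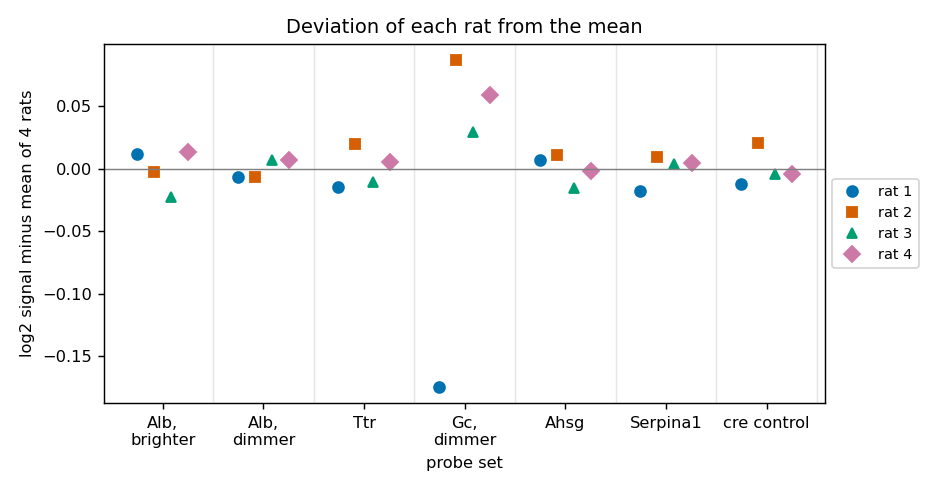
Deviation of each rat from the mean of the 4 rats in log2 units (vertical axis) for the 6 carrier probe sets that were not flat and for the brightest phage control probe set that was not flat (horizontal axis). The deviations of 5 carrier probe sets and of the control lie within 0.0223 of 0, while the dimmer Gc probe set reaches -0.17 in rat 1.

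The median between-rat SD of the 7 genes, each by its brightest probe set, was 0.0118 log2 units, against 0.0700 for all 1155 probe sets above background. It was 0.0280 with the arrays scaled to their brightest 10% of probe sets, a scaling that also spreads the values of flat genes. It was 0.0032 without rat 1 and 0.0064 without rat 3. When probe sets named with _s, _x or _a were dropped it was 0.0062, but Ahsg then had no probe set left. The 3 flat genes were kept in these medians, and 0.0062 lies between the SDs of flat Gc (0.00012) and of Serpina1 (0.012). Of the 7 genes, 3 were flat by their brightest probe set, as were 15.5% of all probe sets above background and 43.5% of all on the array. Without flat probe sets the median SD was 0.0140 for the remaining 4 genes and 0.0846 for all. With the carriers left out, probe sets with means from 10 to 11 had a median SD of 0.0712, those from 11 to 12 one of 0.0737 and those from 12 to 13 one of 0.0786. The value was 0.0482 from 13 to 14, over 38 probe sets, and 0.0349 above that, over 8 probe sets.

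Probe sets as bright as the carriers give the closer comparison, which was chosen after the values were seen. The 8 brightest carrier probe sets were among the 21 at or above the signal of Rbp4, and the 13 others had a median SD of 0.0366. Of those 13, 11 were not flat, and 10 of the 11 had an SD above 0.0166, the largest among the brightest probe sets of the 7 genes. The exception was a control for cre, a gene of phage P1, at 13.837, 13.870, 13.845 and 13.845 in rats 1 to 4 (SD 0.0142), a range of 2.29% in linear signal. Such controls are added in fixed amounts in the manufacturer's protocol, though the labels do not describe the addition. Of the other cre probe sets, 1 was flat at 13.72. All 7 bacterial and phage control probe sets above background had SDs between 1.80e-08 and 0.173. The ranges of Alb, Ttr, Ahsg and Serpina1 were 1.86% to 2.51%. The 2 dimmer cre probe sets, with means of 12.90 and 12.13, had ranges of 31.7% and 7.27%. The part of scanner or probe saturation in these narrow ranges was not tested, since the deposited values carry no such measure.

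**Figure D3:**
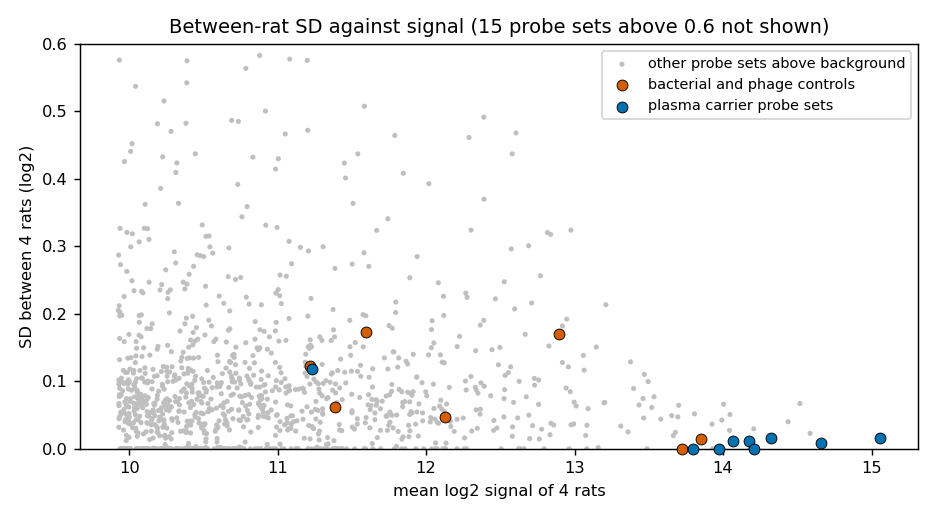
SD between the 4 rats (vertical axis, log2 units) against mean log2 signal (horizontal axis) for every probe set above background, with the 9 carrier probe sets and the 7 bacterial and phage controls marked; 15 probe sets with an SD above 0.6 are outside the axis. The brightest probe sets of the 7 carriers lie at or below an SD of 0.0166 at the right end.

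The carriers shared no single order of the rats. Among the 4 genes that were not flat, Ttr, Ahsg and Serpina1 were highest in rat 2 and Alb in rat 4. The lowest value was in rat 1 for Ttr and Serpina1 and in rat 3 for Alb and Ahsg. Over the 976 probe sets above background that were not flat, 24.6%, 18.6%, 33.4% and 23.4% were highest in rats 1 to 4, and 32.1%, 34.6%, 15.6% and 17.7% were lowest there. Median deviations of the 4 genes were -0.004, 0.010, -0.013 and 0.005 in rats 1 to 4. These orders depend on the scaling of the arrays. With the arrays scaled to their brightest 10% of probe sets, which moved rat 2 by 0.028 and rat 3 by -0.029, all 4 genes were highest in rat 2 and lowest in rat 3. Those moves are close in size to the whole ranges of these genes, 0.027 to 0.036 log2 units. The shared order under this scaling therefore cannot be read as a trait of the carriers.

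By brightest probe sets, Alb was the carrier with the largest SD. The profile most like that of its brighter probe set alone was sought among 774 genes above background that were not flat. The measure was the root mean square difference of deviations over the 4 rats. The closest were Lamp2, a lysosomal membrane protein (0.0066), Pcbp1, an RNA-binding protein (0.0066), and Cd302 (0.0082). With 4 rats and differences this small, the list only describes these arrays.

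Another probe set named Ttr together with the metallothioneins Mt1f and Mt1, small proteins that bind zinc and copper, and was therefore not counted for Ttr. It had 12.57, 11.81, 10.20 and 13.69 in rats 1 to 4 (mean 12.07 ± 1.46), an 11.2-fold range in linear signal, where the probe set of Ttr alone varied by 2.43%. The probe set of Mt2A had 10.82, 10.00, 8.94 and 12.33, and that of Mt1 had 8.60, 8.19, 7.84 and 8.87. All 3 ran in the same order, from rat 4 through rats 1 and 2 to rat 3, while Ttr alone was highest in rat 2. The probe set of another metallothionein, Mt3, did not share that order, with 8.81, 8.77, 8.74 and 8.76. The probe sets of Mt3 and Mt1, with means of 8.77 and 8.38, both lay below the background level with Myh1.

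**Figure D4:**
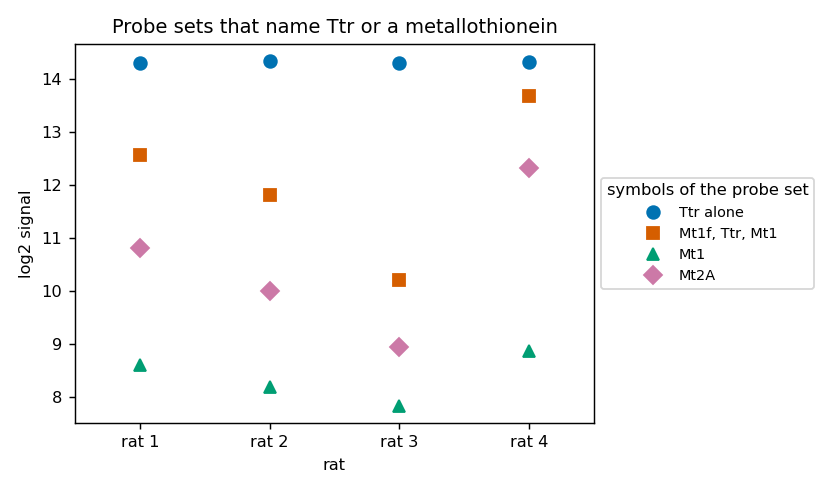
Log2 signal (vertical axis) in each rat (horizontal axis) of the Ttr probe set, the probe set annotated with Mt1f, Ttr and Mt1, and the probe sets of Mt1 and Mt2A. The Ttr probe set stays between 14.31 and 14.34, while the probe set with several symbols runs from 10.20 in rat 3 to 13.69 in rat 4.

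Relatives and partners of the carriers were followed in 8 lists, whose 46 measured genes were above background in 24 cases, against 8.80% of all genes on the array. Without Myh1 35 of 46 were, against 49.5% of all genes. In the albumin family, afamin (Afm), a carrier of vitamin E, was flat at 12.62, whereas alpha-fetoprotein (Afp), known as the albumin-like protein of fetal liver, had a signal of 8.42 ± 0.02. That was below the background level with Myh1 and above the one without it. Both measured members of the inter-alpha-inhibitor heavy chain family were above background. Itih3, a heavy chain to which bikunin from Ambp is joined, had 14.04 ± 0.03, and its relative Itih4 had 13.46 ± 0.07. Among relatives of Ahsg in the cystatin superfamily, Fetub (fetuin-B) had 13.70 ± 0.05 and histidine-rich glycoprotein (Hrg) 13.20 ± 0.07.

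Of 9 measured serpins of clade A, the clade of Serpina1, 7 were above background. They included Serpina3c at 13.43 ± 0.06, Serpina3n at 13.06 ± 0.12 and Serpina6, the corticosteroid carrier, at 11.58 ± 0.20. Serpina7, another thyroxine carrier, had 7.32, 8.29, 7.34 and 7.97 in rats 1 to 4 (mean 7.73 ± 0.48), and its mean was below both background levels. Other plasma carriers were above background in 7 of 8 cases, led by haptoglobin (Hp), a binder of hemoglobin, at 14.21 ± 0.03, and hemopexin (Hpx), a binder of heme, at 13.81 ± 0.05. The widest spread there was that of Apoa1, the main protein of high-density lipoprotein, at 12.82 ± 0.32, with 12.34 in rat 1 and 12.92 to 13.03 in the others.

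Receptors that clear or recycle plasma proteins were above background in 4 of 7 cases, and in 6 of 7 without Myh1. B2m, the light chain of the neonatal Fc receptor that recycles albumin and also of other receptors, had 13.36 ± 0.02, and the heavy chain Fcgrt 10.50 ± 0.04. The asialoglycoprotein receptor chains had 10.70 ± 0.04 (Asgr1) and a flat 10.94 (Asgr2). Of 8 genes of retinol and thyroid hormone handling, only Thrsp, a thyroid hormone-responsive gene, was above background, at 10.69 ± 0.49, and 4 were without Myh1. Lrat, which esterifies retinol in stellate cells, had a flat 8.10, and the deiodinase Dio1 8.06 ± 0.05. Of 9 hepatocyte transcription factors measured, 0 were above background with Myh1 and 5 without it, among them Hnf4a at 9.67 ± 0.21, Cebpa at 8.99 ± 0.19 and Foxa3 at 9.15 ± 0.46. The counts of the last 2 lists lie near the shares of all genes, 8.80% with Myh1 and 49.5% without it.

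The tissue label was checked with markers of cell types. Hepatocyte markers were above background for 7 of 7 genes, with Fgb, the fibrinogen beta chain, at 13.70 ± 0.06. Of markers of tissues that are also known to make Ttr or Rbp4, those above background were 0 of 4 for choroid plexus (means 7.37 to 8.26), 0 of 4 for fat (7.17 to 8.48) and 0 of 6 for pancreas (7.35 to 9.49). Without Myh1, 0 choroid plexus, 1 fat and 2 pancreas markers were above the level. Since 8.80% of all genes passed with Myh1 and 49.5% without it, counts of 0 in lists this short do not set these tissues apart from genes in general. Macrophage markers were above background for 3 of 5 genes and stellate cell markers for 1 of 6, which was Col3a1 at 10.83 ± 0.43. Endothelial markers were for 0 of 4, bile duct markers for 0 of 3 and blood cell markers for 0 of 6. Without Myh1, these counts were 5 of 5 for macrophages, 3 of 6 for stellate cells, 2 of 4 for endothelium, 0 of 3 for bile duct and 1 of 6 for blood cells. The mean signal of the macrophage list was 9.67, 9.93, 9.85 and 9.74 in rats 1 to 4 and that of the stellate cell list 8.47, 8.67, 8.18 and 8.72. In the stellate cell list the differences rested on Col1a1, Col3a1 and Lum (SDs of 0.59, 0.43 and 0.45). Des was flat, Acta2 and Pdgfrb had SDs of 0.03, and Acta2 was highest in rat 3, where the list was lowest. The differences between rats in both list means exceeded those of the carriers by their brightest probe sets, though the dimmer Gc probe set ran from 11.06 to 11.32. The hepatocyte list had means of 12.51, 12.63, 12.75 and 12.60. The part of such differences in the carriers' rat orders was not tested. In whole tissue, fewer cells of a type and less RNA per cell cannot be told apart.

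**Figure D5:**
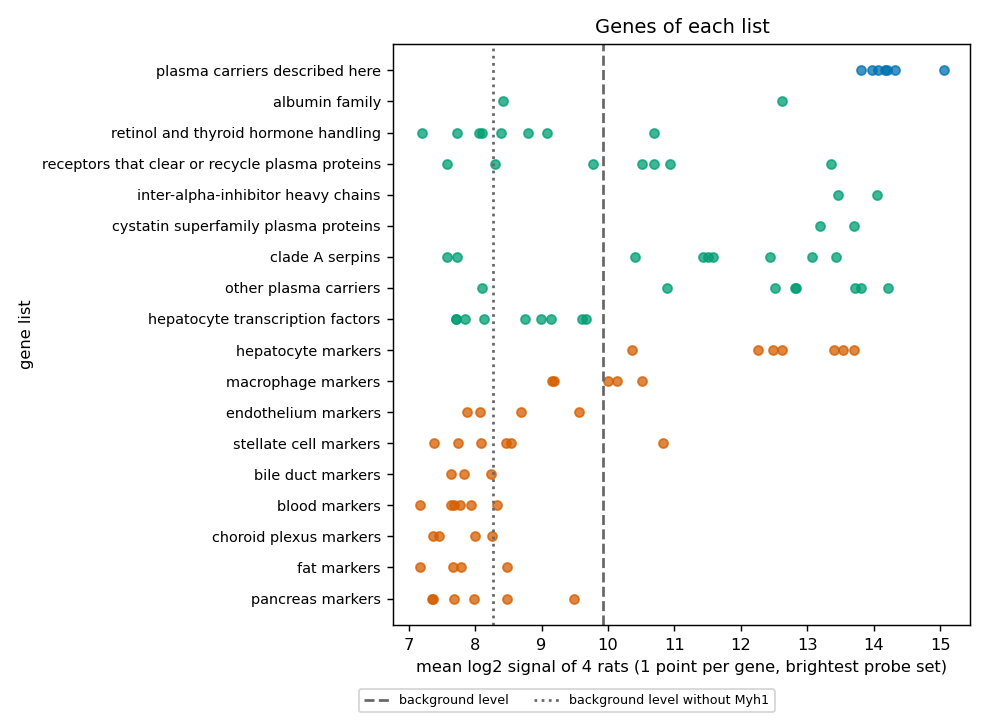
Mean log2 signal over the 4 rats (horizontal axis) of each measured gene, 1 point per gene by its brightest probe set, in each gene list (vertical axis), with both background levels as vertical lines. The 7 carriers lie between 13.80 and 15.06, and the hepatocyte transcription factors between 7.71 and 9.67.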

How the data were processed

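Liver RNA of 4 control rats was hybridised to 1 Affymetrix array each, per the labels. The deposited values are log2 signals per probe set, from 5.98 to 15.07, with array medians of 8.11, so the authors had put the arrays on a common scale. The submitters' processing notes name GCRMA, RMA, the affy package in version 1.12.2 and R in version 2.4.1. Which of GCRMA and RMA gave the values is not given in the sources used here. Per the file headers, the 4 arrays shared 1 lot, 1 scan day and 1 fluidics station and used 4 modules, so no batch could be fitted. The platform annotation gave 1 symbol to 12789 probe sets, several to 312 and none to 2822. Genes were matched by gene number, and each was represented by its brightest probe set, which compares signals between probe sets and describes signal only.

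Above background means a mean over 4 arrays above the 95th percentile of the background list. Spread is the SD over 4 rats. No hypothesis test was made. Named were all carriers, the 2 brightest genes and the gene with the largest SD of each list above background, and the 3 genes most like Alb. Lrat, Dio1, Afp, Fcgrt, Serpina7, Hnf4a, Cebpa, Foxa3 and the metallothioneins were added after values were seen, as were Fgb and the stellate cell markers named. The members and lists were chosen with earlier results of these data known. Alternatives covered the background level, scaling, choice of probe set, measure of spread and leaving out each rat. Calculations used Python 3.11.15, numpy 2.4.6 and pandas 2.3.3 and were tested on simulated data.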

Additional observations from a re-analysis of the deposited data

Results flagged for a closer look

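The 4 values of 19 probe sets were examined, those of the carriers and of the relatives named by rule, leaving out flat ones. In 1 of them a single rat stood apart by a gap that is large relative to the range, and about 5% of such sets do so by chance. This was Apoa1, with a log2 signal of 12.34 in rat 1. None of the 6 carrier probe sets examined had such a rat. Outside the probe sets counted for the carriers, the probe set annotated with Mt1f, Ttr and Mt1 gave a mean log2 signal of 12.07, above background.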

How the results depend on the processing

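All 9 carrier probe sets stayed above background at the 90th and 98th percentiles, without Myh1, by each array's own level and without each rat, and so did the 7 left without the suffixes s, x and a. The count of all probe sets above background was 6561 at the 90th percentile, 578 at the 98th, 6667 without Myh1 and 6224 without those suffixes. Of the 46 relatives, 35 were above at the 90th percentile, 20 at the 98th, and 41 above the background median, an alternative added after seeing the data. The median SD of the carriers was 0.0280 with arrays scaled to the brightest 10%, 0.0062 without those suffixes and 0.0042 by the median absolute deviation. It was 0.0032 without replicate 1, 0.0064 without replicate 3 and 0.0143 without replicate 4, the highest of the 4. Scaled to the brightest 10%, 4 genes were lowest in replicate 3, 0 lowest in replicate 1 and 0 highest in replicate 4. After quantile normalization Alb and Ttr had 1 value in all rats, and Ahsg and Serpina1 had pairs of tied rats, of which the lower number is counted, so that 1 was highest in replicate 2, 1 in replicate 3 and 0 in replicate 4, with 0 lowest in replicate 3. Without the suffixes Ahsg had no probe set left, also in the median SD above, and 1 gene was lowest in replicate 3. Leaving out a rat gave 0 to 1 genes highest in replicate 1, 3 highest in replicate 2, 1 to 3 highest in replicate 4, 0 to 1 lowest in replicates 2 and 4, and 2 to 4 lowest in replicate 3. By the mean of its probe sets, Gc had 12.72 and Alb 14.86. Apart from the loss of Ahsg, the causes of these shifts were not tested. No paired analysis was possible because all samples form 1 group. With 4 arrays and narrow ranges at the bright end, small differences between rats could not be resolved.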
